A study of Homo sapiens with 6 samples.

Results

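In the 10X libraries, the 2000 barcodes with the most counts were taken as cells, as many as the labels give, and all other barcodes are described here. They were chosen by count sum alone, with ties broken by the barcode's sequence. They numbered 11857 of 13857 barcodes in the library with 30 PCR cycles and 16087 of 18087 in the library with 35 cycles. They held 182188 of 494147 counts (36.9%) and 301788 of 740994 counts (40.7%). Both libraries came from 1 encapsulation of myeloma lines, the human line JJN3 and the mouse line given in the labels as 5TGMG1, and the study's methods spell the mouse line 5TGM1. The cells were loaded at an equal split, and the cDNA was divided between the libraries after a first round of PCR. The series holds 6 samples in all, of which these 2 are 10X, and each group is 1 library of 1 pair of lines, so no difference here has a replicate check or a test. Every interval is a 95% interval for counting error only.

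In droplet sequencing, each droplet holds a bead whose oligonucleotides share a cell barcode, and the RNA of a lysed cell is copied with that barcode. Most droplets hold a bead and no cell, and they still take up RNA that leaked from damaged cells into the suspension, which is known as ambient RNA. A read whose barcode was misread by the sequencer or by PCR also counts under a sequence that no cell carried. A mixture of human and mouse cells shows such effects, since RNA of the wrong species in a barcode cannot come from its own cell.

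The deposited barcodes have 10 bases, and the study's methods describe longer ones, so different cells may share a stored barcode. Some barcodes ranked below 5000 differed by 1 base from the deepest cell of a species. At 35 cycles there were 24 of them for the 2 cells, of which 12 are printed here, with both species among them. They are shown because a result below compares the species of a barcode with that of the cell 1 change away. The base that was changed or taken in is in capitals, and the number after each name is its stored counts.

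35 cycles, human cell with 1258 counts: cgtattgtgg
First base lost, 24 counts, human: gtattgtggA
First base lost, 19 counts, human: gtattgtggT
Base taken in at the start, 26 counts, human: Tcgtattgtg
Base inserted, 21 counts, human: cTgtattgtg
Base inserted, 4 counts, mouse: cAgtattgtg
Inner base lost, 2 counts, mouse: cgattgtggC
Base substituted, 8 counts, human: cCtattgtgg
Base substituted, 9 counts, mouse: cgtattgtgC
35 cycles, mouse cell with 1319 counts: atccactacc
First base lost, 18 counts, mouse: tccactaccA
Base taken in at the start, 11 counts, mouse: Tatccactac
Base taken in at the start, 4 counts, human: Catccactac
Base substituted, 4 counts, human: aAccactacc

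Of the 19 barcodes with a base lost or taken in beside these 2 cells, 14 held the species of the cell, with 2 to 26 counts and a median of 6. Of the 5 with a substitution, 2 held the species of the cell, with 4 to 9 counts and a median of 8. The deepest of these barcodes were thus among those moved along by 1 base, and each kind of change also gave barcodes of the other species.

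The count sums fell without a gap at rank 2000. The last cell and the first barcode outside had 76 counts each at 30 cycles, where 27 cells and 14 barcodes outside shared that value. At 35 cycles both had 114 counts, shared by 10 cells and 19 barcodes outside. The median count was 119 in the cells and 6 outside at 30 cycles, and 174.5 and 6 at 35 cycles. The smallest value stored for a transcript in a barcode was 2 in both libraries, and 3287 barcodes outside (27.7%) at 30 cycles and 4624 (28.7%) at 35 cycles held those 2 counts and nothing more.

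**Figure D1:**
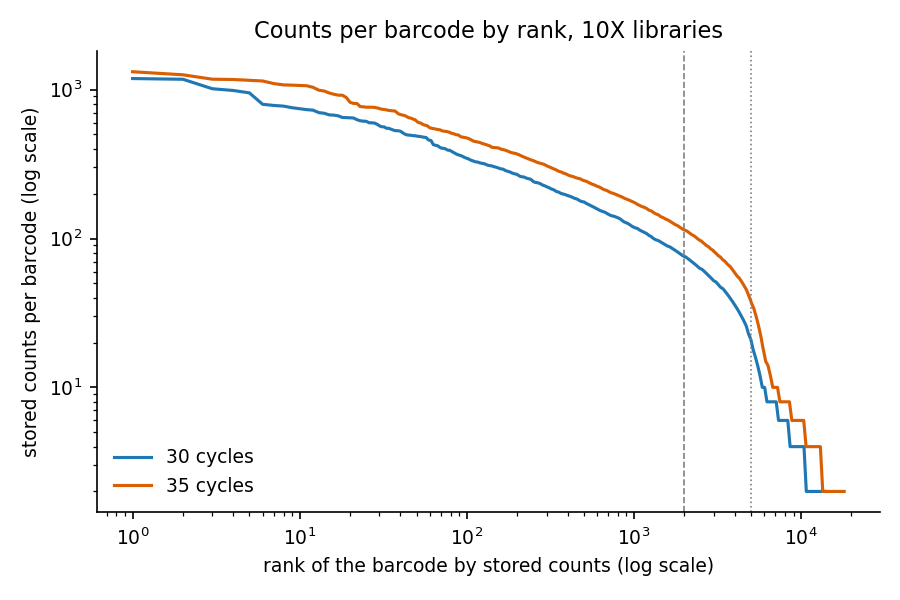
Stored counts per barcode against the rank of the barcode, both on log scales, for the library with 30 cycles (blue) and with 35 cycles (orange). The dashed line marks rank 2000, where the counts were 76 and 114, and the dotted line marks rank 5000, after which they were 21 and 38.

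The barcodes just below the edge were nearly all stored in both libraries. Of the 3000 barcodes at ranks 2001 to 5000, 2997 (99.9%) at 30 cycles and 2995 (99.8%) at 35 cycles were also stored in the other library, although a matrix stored only 1.32% or 1.72% of the 1048576 possible sequences of 10 bases. Barcodes were called human or mouse when at least 90% of their counts lay on that species, and mixed otherwise. Where such a barcode was of 1 species in both libraries, the species was the same for 2768 of 2768 barcodes at 30 cycles (interval 99.9 to 100%) and for 2802 of 2802 at 35 cycles (99.9 to 100%). The species make-up alone gives 50.2% and 50.6%. Both libraries were amplified from 1 barcoded cDNA, so a droplet without a cell could also recur in both with 1 species. These shares cannot tell it from a cell, and which barcodes held cells was not tested. The study's methods give more cells loaded than the 2000 of the labels. The split at rank 5000 was chosen after these shares were seen.

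Below rank 5000 these shares were lower. Of the barcodes there, 2936 of 8857 (33.1%) at 30 cycles and 2938 of 13087 (22.4%) at 35 cycles were stored in the other library. Species agreed for 2520 of 2729 barcodes (92.3%, 91.3 to 93.3%) and for 2509 of 2718 (92.3%, 91.2 to 93.3%). Their median count was 4 in both libraries, against 44 and 70 at ranks 2001 to 5000. Most of those with only human counts held a single gene: 3176 of 5004 (63.5%) at 30 cycles and 3855 of 6908 (55.8%) at 35 cycles, against 3 of 1389 and 0 of 1438 at ranks 2001 to 5000. Over both libraries, 5474 barcodes were outside in both, 1541 were cells in both, and 459 in each direction were a cell in one and outside in the other. Barcodes outside in both with opposite species numbered 209.

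**Figure D2:**
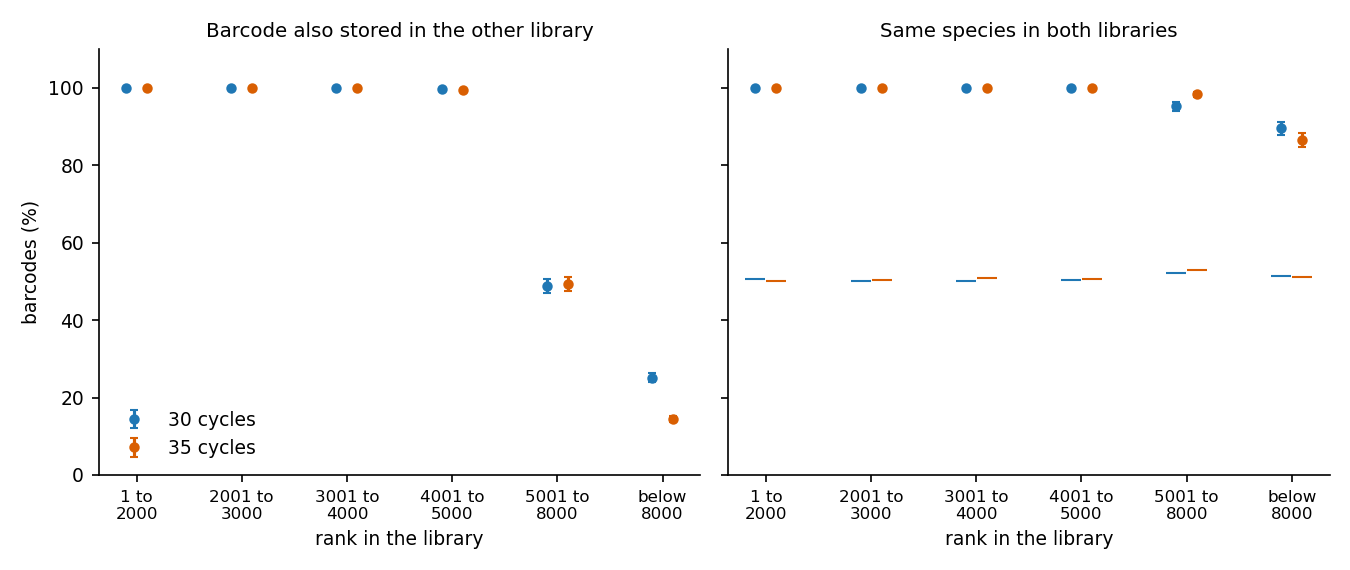
Percent of barcodes by rank that were also stored in the other library (left) and, of those with 1 species in both, percent with the same species (right), for 30 cycles (blue) and 35 cycles (orange). Points are shares with exact 95% intervals and dashes are the share given by the species make-up. Storage in the other library fell from 99.5% or more at ranks 4001 to 5000 to 48.8% and 49.2% at ranks 5001 to 8000.

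The mixed share was lower outside than in the cells. Among barcodes with at least 10 counts, 257 of 4153 outside (6.19%, 5.47 to 6.96%) and 188 of 2000 cells (9.40%, 8.16 to 10.8%) were mixed at 30 cycles. At 35 cycles the mixed numbered 296 of 5355 outside (5.53%, 4.93 to 6.17%) and 208 of 2000 cells (10.4%, 9.10 to 11.8%). At ranks 2001 to 5000 the mixed share was 5.50% at 30 cycles and 3.77% at 35 cycles, and below rank 5000 it was 7.98% and 7.77%. Depth differed along with these shares, and a barcode with a single gene cannot be mixed. With a minimum of 20 counts the share outside was 5.34% and 4.49%.

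The human share of the counts moved in opposite directions in the 2 libraries. It was 58.6% in the cells and 53.8% outside at 30 cycles, which is 4.80 percentage points lower outside (a difference of -4.80). At 35 cycles it was 52.8% in the cells and 55.7% outside, a difference of 2.94 points. The cells were not the same barcodes in both libraries. Below rank 5000 the human share was 58.4% at 30 cycles and 59.2% at 35 cycles. These values pool ranks 5001 to 8000, at 60.0% and 63.6%, with the ranks below 8000, at 55.9% and 53.4%.

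A sequencing error in a cell's barcode leaves a read under a neighbouring sequence, and the species then follows the cell. Species was compared between each barcode outside and the cell 1 change away, where exactly 1 cell was that near and both were of 1 species. With 1 base substituted, the species agreed for 955 of 1741 pairs (54.9%, 52.5 to 57.2%) at 30 cycles and for 1353 of 2378 pairs (56.9%, 54.9 to 58.9%) at 35 cycles. The species make-up gives 50.8% and 50.1%. With 1 base deleted, so that the sequence moved along and a new base came in at an end, agreement was 65.6% (63.8 to 67.4%) and 68.0% (66.5 to 69.4%). With 1 base inserted it was 66.6% (64.8 to 68.4%) and 69.1% (67.6 to 70.5%). Insertions and deletions thus gave higher agreement than substitutions in both libraries, with intervals that did not overlap. By the study's methods, barcodes had been matched to the most common ones with mismatches allowed, which can remove substitutions before storage. Still, 2370 of 11857 barcodes outside at 30 cycles and 3197 of 16087 at 35 cycles lay 1 substitution from a cell. How far the matching acted on the stored barcodes was not tested. The shares of agreement therefore do not compare how often each kind of error arose. Many pairs 1 deletion apart are also 1 insertion apart, so these counts share barcodes.

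The agreement lay in the barcodes below rank 5000. There it was 57.5% and 59.1% for substitutions, 69.2% and 70.9% for deletions, and 71.6% and 72.5% for insertions, at 30 and 35 cycles. At ranks 2001 to 5000 the same shares were 47.9% and 48.9%, 51.8% and 51.1%, and 48.9% and 49.4%, all with intervals that held the share given by the make-up. The highest agreement was at ranks 5001 to 8000 of the library with 35 cycles, 77.5% (74.6 to 80.3%) for deletions and 78.4% (75.5 to 81.1%) for insertions. A substitution neighbour among the cells was found for 20.0% and 19.9% of the barcodes outside, and for 25.7% and 24.5% of the cells, against 5.23% and 5.24% of all sequences of 10 bases. The cells' barcodes were thus themselves closer to each other than sequences drawn evenly would be, and nearness alone says little.

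**Figure D3:**
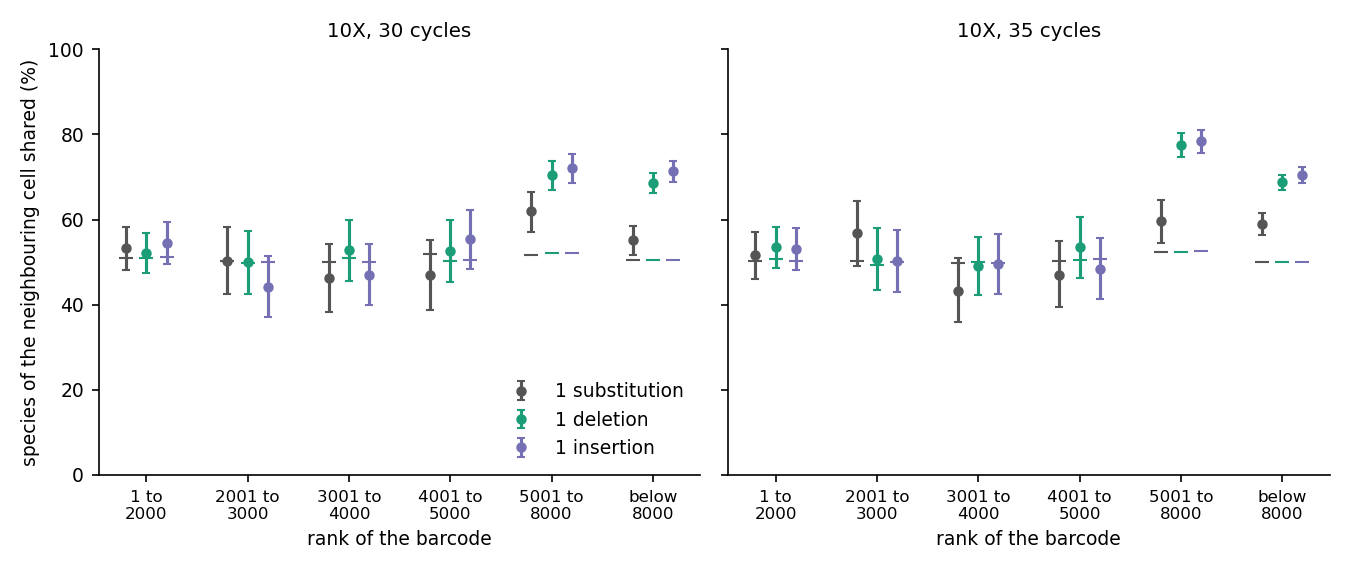
Percent of barcodes with the species of the single cell 1 change away, by rank, for substitutions (grey), deletions (green) and insertions (violet), at 30 cycles (left) and 35 cycles (right). Bars are exact 95% intervals and dashes the share given by the species make-up, and from rank 5001 on the deletions and insertions lie at 68.6% or higher while ranks 2001 to 5000 lie near the dashes.

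Each transcript with at least 100 counts over both sets was compared as its share of the species' counts, outside against the cells of the same library. At 30 cycles, 2 of 294 human transcripts were higher outside by 2-fold or more (0.68%) and 31 were lower (10.5%). At 35 cycles, 1 of 325 was higher (0.308%) and 43 were lower (13.2%). In mouse, 1 of 224 was higher (0.446%) and 6 lower (2.68%) at 30 cycles, and 3 of 378 were higher (0.794%) and 13 lower (3.44%) at 35 cycles. The median log2 ratio was below 0 in each case, at -0.30 and -0.36 for human and -0.14 and -0.18 for mouse. Scaled by the median of ratios instead, the split of higher and lower calls over both species moved from 3 and 37 to 9 and 17 at 30 cycles, and from 4 and 56 to 14 and 14 at 35 cycles. Of 232 human transcripts tested in both libraries, 14 were lower by 2-fold in both and 0 were higher by 2-fold in both.

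The depth of the barcodes touches every one of these ratios. A value below 2 was not stored, so in a shallow barcode an abundant transcript is kept more often than a rare one. The cells were therefore also thinned by calculation to the mean depth of the barcodes outside, 15.4 counts at 30 cycles and 18.8 at 35 cycles, and values below 2 left out again. This matched the mean and not the spread of depth, since the median outside was 6 counts. Each count was kept with a probability of 0.276 at 30 cycles and 0.237 at 35 cycles before that filter. Against thinned cells, human calls were 4 higher and 26 lower at 30 cycles and 3 higher and 12 lower at 35 cycles. Mouse calls were 0 higher in both libraries, with 10 and 11 lower. The median log2 ratio against thinned cells was -0.29 and -0.16 for human and -0.22 and -0.17 for mouse. Thinned values are given below beside the stored values of the lists and of the transcripts the results turn on.

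Of the 10 human transcripts highest outside by the smaller ratio over both libraries, 3 came from the mitochondrial genome, 5 from the immunoglobulin lambda locus, and 2 had no name in the annotation used. MT-CO1 (ENST00000361624), which encodes a catalytic subunit of cytochrome c oxidase, had 3490 counts in the cells and 3377 outside at 30 cycles, and 5269 and 6701 at 35 cycles. As a share of human counts this was 1.91% and 3.45%, then 2.27% and 3.98%, with log2 ratios of 0.85 (0.78 to 0.92) and 0.81 (0.76 to 0.86). Against thinned cells the ratios were 0.14 and -0.00. The lambda transcript IGLL5 (ENST00000532223) gave 0.60 (0.53 to 0.68) and 0.82 (0.78 to 0.87), and against thinned cells -0.06 and -0.09. MT-ATP6, a subunit of ATP synthase, gave 0.38 and 0.34, and -0.27 and -0.32 when thinned. MT-CO3, another subunit of cytochrome c oxidase, gave 0.27 and 0.29, and -0.29 and -0.27. The unnamed ENST00000600213 had 1946 counts in the cells and 1467 outside at 30 cycles, and 2543 and 2302 at 35 cycles, with ratios of 0.49 and 0.32, and 0.15 and 0.051 when thinned. The unnamed ENST00000541549 had 57 and 62 counts, then 202 and 177, with ratios of 1.02 (0.48 to 1.57) and 0.27 (-0.03 to 0.57), and 1.15 and 0.60 when thinned. With cells at equal mean depth, the ratios of the 5 lambda transcripts, MT-ATP6 and MT-CO3 were thus below 0 in both libraries, MT-CO1 was above 0 at 30 cycles only, and both unnamed transcripts stayed above 0. The human medians against thinned cells were themselves below 0, at -0.29 and -0.16. The 5 lambda transcripts and MT-CO1 lay above them in both libraries. MT-ATP6 and MT-CO3 lay near the median at 30 cycles and below it at 35 cycles.

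The mitochondrial list of 13 genes was also higher outside as stored and below 0 when thinned. It took 10.9% of human counts in the cells and 13.6% outside at 30 cycles, and 13.2% and 17.0% at 35 cycles, log2 ratios of 0.32 (0.29 to 0.35) and 0.36 (0.34 to 0.39). Thinned, the ratios were -0.24 and -0.19, near the human medians of -0.29 and -0.16 against thinned cells. Of its tested transcripts, 9 of 12 were higher by any amount at 30 cycles, against 21.8% of all tested human transcripts, and 12 of 13 at 35 cycles, against 20.9%. None was higher by 2-fold, with median log2 ratios of 0.21 and 0.23 against the human medians above. MT-ND5, a subunit of complex I, gave values below 0 in both, -0.10 (-0.31 to 0.11) and -0.21 (-0.37 to -0.05), and the first interval held 0.

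Ranked by the ratio nearer to 0 of the 2 libraries, the 10 human transcripts lowest outside came from ribosomal protein genes and CD74, with 1 unnamed entry among them. Other transcripts were lower in a single library. RPL8 (ENST00000394920) of the large subunit had 103 counts in the cells and 14 outside at 30 cycles, and 132 and 43 at 35 cycles. Its log2 ratios were -1.94 (-2.90 to -1.17) and -1.14 (-1.69 to -0.65), and -1.85 and -0.82 against thinned cells. RPLP1 (ENST00000260379), a protein of the ribosomal stalk, had 117 and 27 counts, then 118 and 27, with log2 ratios of -1.20 (-1.88 to -0.60) and -1.64 (-2.33 to -1.05). RPLP0 encodes the stalk's core protein. Its entry ENST00000549098, annotated as nonsense-mediated decay and not as coding, had 108 and 20 counts, then 166 and 49. The ratios were -1.50 (-2.30 to -0.84) and -1.29 (-1.79 to -0.83). The coding entry ENST00000392514 gave -1.12 and -1.25. RPL7A (ENST00000323345) gave -1.09 and -1.33. CD74 (ENST00000353334), the chaperone of MHC class II, had 85 and 21 counts, then 163 and 54, with -1.09 (-1.88 to -0.42) and -1.12 (-1.60 to -0.68). These transcripts stayed lower when the cells were thinned, between -0.74 and -1.85 in both libraries. Ribosomal protein genes have many near-identical pseudogenes, so reads of 1 gene may be split between entries. Reads may also be stored under several entries. RPL7A and the unnamed ENST00000630979 both had 93 and 23 counts at 30 cycles. A second RPL8 entry (ENST00000262584) had 101 and 14 there. Such entries are not separate results, and their intervals may be too narrow.

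As a list, the large ribosomal subunit fell from 4.52% of human counts in the cells to 3.09% outside at 30 cycles and from 5.08% to 3.44% at 35 cycles. The log2 ratios were -0.55 (-0.61 to -0.49) and -0.56 (-0.61 to -0.52), and -0.48 and -0.26 when thinned. Of its tested transcripts, 28 of 29 were lower at 30 cycles, where 78.2% of all tested human transcripts were lower by any amount, and 30 of 30 at 35 cycles, where 79.1% were. By 2-fold, 10 of 29 and 11 of 30 were lower, against 10.5% and 13.2% of all. Several of these entries belong to the same genes, RPL8 and RPLP0 among them, with close counts. They are therefore not separate members, and the numbers of entries may overstate the list. The small subunit fell from 1.79% to 1.30% and from 1.72% to 1.03%, with thinned ratios of -0.24 and -0.27. RPS6, a small subunit protein phosphorylated downstream of mTOR, went the other way, with 76 and 77 counts at 30 cycles (0.92, 0.44 to 1.40) and 188 and 229 at 35 cycles (0.75, 0.46 to 1.03), and it gave 1.22 and 1.10 when thinned. The cell cycle list gave log2 ratios of -0.83 (-1.06 to -0.62) and -0.84 (-0.98 to -0.70), and -0.63 and -0.49 when thinned. In it, STMN1, which destabilises microtubules, had 326 counts in the cells and 90 outside at 30 cycles, and 750 and 334 at 35 cycles, with thinned ratios of -0.82 and -0.41. MCM3, part of the replicative helicase, had 100 and 30, then 131 and 29, with thinned ratios of -0.76 and -1.41.

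Of the other lists, glycolysis was lower outside at -0.43 and -0.45, elongation factors at -0.26 and -0.24, and plasma cell genes at -0.38 and -0.44. Thinned, glycolysis came to -0.18 and 0.04, elongation factors to -0.32 and -0.23, and plasma cell genes to -0.32 and -0.06. The median tested human transcript lay at -0.30 and -0.36 as stored, and at -0.29 and -0.16 against thinned cells. As stored, elongation factors were thus above that median, and glycolysis and plasma cell genes somewhat below it. Among the plasma cell genes, MZB1, which helps to assemble immunoglobulin in the endoplasmic reticulum, had 213 counts in the cells and 32 outside at 30 cycles and 322 and 58 at 35 cycles, with thinned ratios of -1.65 and -1.63. PRDM1, the transcription factor of plasma cell fate, went opposite ways, with 426 and 152 counts at 30 cycles and 166 and 220 at 35 cycles, with thinned ratios of -0.43 and 1.38. Heat shock genes were higher at 30 cycles (0.19, 0.04 to 0.34) and lower at 35 cycles (-0.29, -0.38 to -0.19), with thinned ratios of 0.48 and 0.0017. In that list HSPA8, the constitutive cytosolic HSP70, had 149 and 153 counts, then 341 and 118, with thinned ratios of 1.09 and -0.68. By the rule of size used for lists, a ratio of 1.25-fold, 9 of 14 lists with enough counts were called at 30 cycles (3 higher, 6 lower) and 11 of 15 at 35 cycles (4 higher, 7 lower). Against thinned cells 5 (2 higher, 3 lower) and 4 (3 higher, 1 lower) were called. The rule is measured from equal shares and not from the human medians above, so a list called lower may lie near the median transcript. Plasma cell markers were stored outside for 9 of 10 genes at 30 cycles and 10 of 10 at 35 cycles. Of 15 T cell markers 14 were not stored there in either library, CD3D, CD3E and CD3G among them, and the exception was CD28 with 8 and 20 counts. Of all stored human transcripts, 12753 of 23384 at 30 cycles and 13813 of 23693 at 35 cycles were stored outside. That count is by transcript, while the marker counts are by gene. The nuclear RNAs MALAT1, NEAT1, KCNQ1OT1 and MEG3 were not stored in any barcode.

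**Figure D4:**
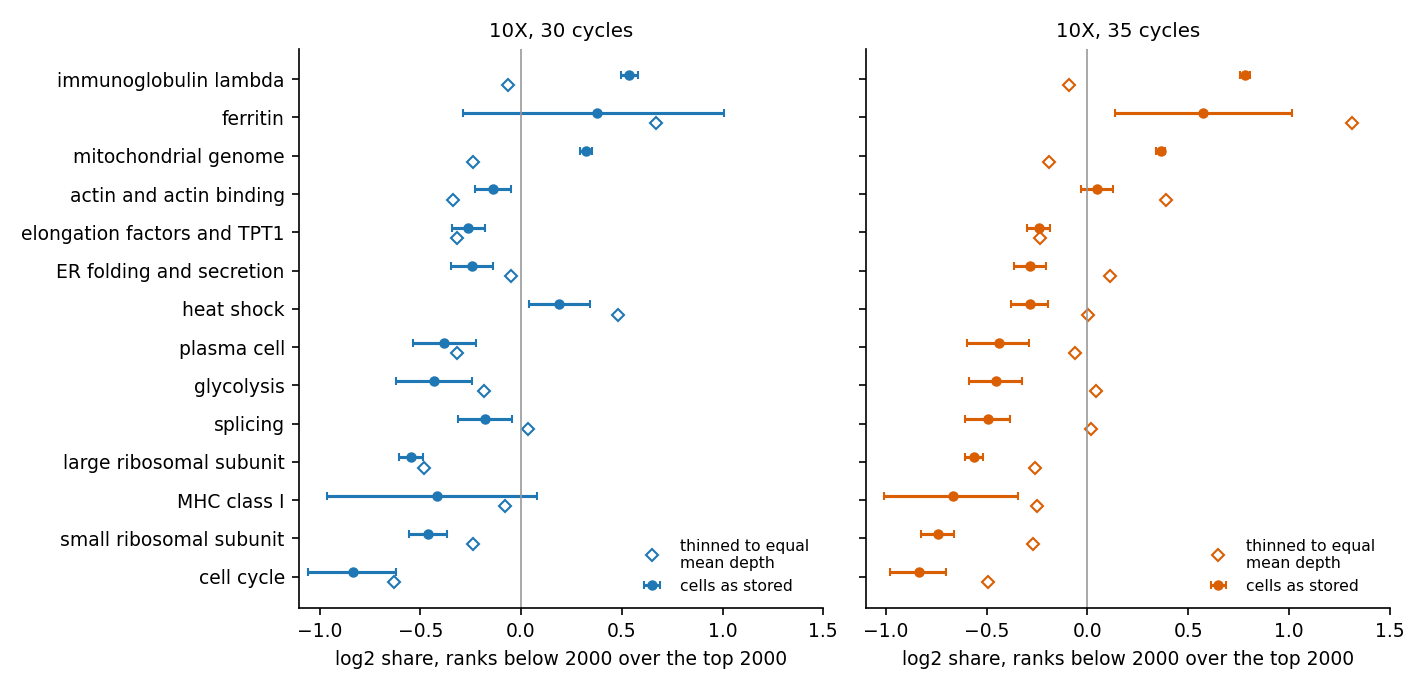
Log2 ratio of each gene list's share of human counts, barcodes ranked below 2000 over the top 2000, at 30 cycles (left) and 35 cycles (right). Filled points with exact 95% intervals use the cells as stored and open diamonds the cells thinned to equal mean depth: the mitochondrial and lambda lists sit right of 0 as stored and left of it when thinned, and the large ribosomal and cell cycle lists sit left of 0 both ways. Sides are read from 0, while the median tested human transcript lay at -0.30 and -0.36 as stored and -0.29 and -0.16 against thinned cells.

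Immunoglobulin lambda, a type of antibody light chain, took a larger share of human counts outside than in the cells. Its list took 6.05% of human counts in the cells and 8.78% outside at 30 cycles, and 10.2% and 17.5% at 35 cycles. Its log2 ratios were 0.54 (0.50 to 0.58) and 0.78 (0.76 to 0.80), and -0.06 and -0.09 when thinned. The thinned values were above the human medians of -0.29 and -0.16. At ranks 2001 to 5000 it took 9.80% and 16.0%, with thinned ratios of 0.31 and 0.17. Below rank 5000 it took 6.14% and 21.0%, with thinned ratios of -0.71 and -0.02.

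Lambda counts of a barcode were often stored under several transcripts at once, though single molecules were not traced. The 2 IGLL5 transcripts ENST00000532223 (chr22:22887780-22896107, hg38, plus strand) and ENST00000526893 overlap IGLC1 (chr22:22895375-22895834), the constant region exon. They were stored together in 1030 of 1030 barcodes outside that held the first at 30 cycles and in 2827 of 2830 (99.9%) at 35 cycles, with the same value in 99.3% and 99.6%. IGLV2-14, a variable segment at chr22:22758700-22759218 that does not overlap them, was stored beside the first in 92.2% and 95.2% of these barcodes, as in an mRNA of a joined variable and constant region. IGLC1 stood beside it in 78.5% and 85.4%. By comparison, MT-CO1 and MT-ATP6 were stored together in 24.3% and 30.4% of the barcodes with MT-CO1. Values of 2 made up 89.6% and 82.9% of all stored entries outside, so equal values are common by that alone. Stored together this often, the lambda transcripts cannot be counted as separate molecules, and intervals on the lambda list are too narrow.

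Barcodes that held little besides lambda were found below rank 5000. Among human barcodes with at least 10 counts, those with over 50% of human counts on the list numbered 0 of 1006 cells (an upper limit of 0.366%) and 106 of 646 below rank 5000 at 30 cycles. At 35 cycles they numbered 0 of 911 cells (0.404%) and 565 of 1453 below rank 5000. At ranks 2001 to 5000 they were 9 of 1487 and 1 of 1578. With IGLV2-14 added to the list, the lambda-rich barcodes below rank 5000 had a median of 5 lambda transcripts, 10 lambda counts and 10 counts in all in both libraries. That is the value of 2 for each of 5 transcripts and nothing else. Such a barcode has 10 counts by this storage alone. It therefore passes the minimum of 10 counts and ranks above a barcode with a single transcript at 2, which the minimum leaves out, and a cell has at least 76 counts. The minimum thus favours lambda below rank 5000, so these counts are a description of single barcodes and not a comparison with the cells. The list's share rose to 29.8% at ranks 5001 to 8000 of the library with 35 cycles and was 7.46% below rank 8000. At 30 cycles it was 9.24% and 0.610%. This view of single barcodes was chosen after the lambda values were seen.

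Human lambda in a barcode called mouse does not belong to its mouse cell, unless mouse reads were aligned to the human locus. At ranks 2001 to 5000, mouse barcodes held 662 human counts at 30 cycles, of which 6 (0.906%, 0.333 to 1.96%) were lambda, and 1251 at 35 cycles, of which 22 (1.76%, 1.11 to 2.65%) were lambda. In human barcodes of those ranks the list took 9.92% and 16.0%, and in mixed barcodes 9.18% and 21.3%. In mouse cells it took 1.95% and 9.51% of the human counts. A mouse barcode holds few human counts by the rule that calls it. A lambda molecule stored under several transcripts can make a shallow mouse barcode mixed. The low lambda shares in mouse barcodes may thus be set in part by that rule. Human counts made up 1.09% and 1.32% of the counts in mouse barcodes at ranks 2001 to 5000, and 1.88% and 1.75% in mouse cells.

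**Figure D5:**
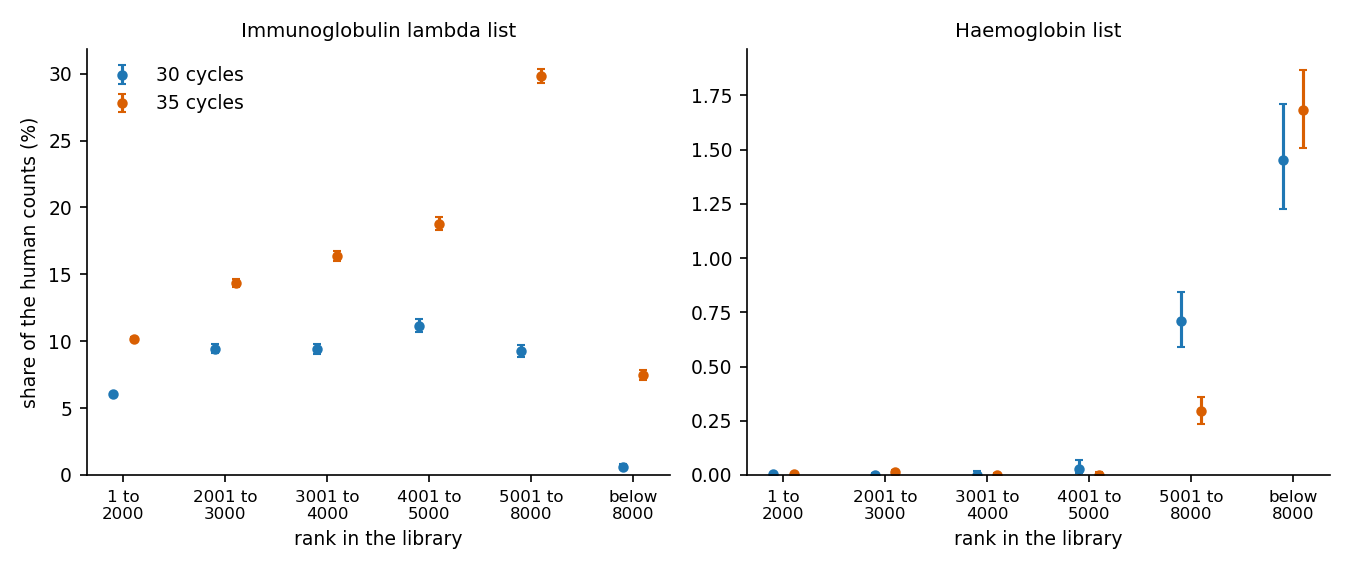
Share of human counts taken by the immunoglobulin lambda list (left) and by the haemoglobin list HBA1, HBA2 and HBB (right), by rank, for 30 cycles (blue) and 35 cycles (orange), with exact 95% intervals. Lambda reached 29.8% at ranks 5001 to 8000 at 35 cycles, and haemoglobin, near 0 in the cells, was highest below rank 8000 at 1.45% and 1.68%.

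Haemoglobin was found almost only below rank 5000. HBA1, HBA2 and HBB, which encode the chains of adult haemoglobin made by red cell precursors, together had 4 counts in the cells and 271 outside at 30 cycles, and 8 and 430 at 35 cycles. Of the counts outside, 267 and 424 lay below rank 5000. There the list took 0.977% (0.863 to 1.10%) and 0.839% (0.761 to 0.922%) of human counts, against 0.00219% and 0.00345% in the cells. HBB (ENST00000335295, chr11:5225464-5227071, hg38, minus strand, an mRNA of 3 exons) was at 0 in the cells of both libraries and had 178 and 259 counts outside over its transcripts. No fold is given, since 1 molecule of HBB could be stored several times. The intervals on this list may be too narrow for the same reason.

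The haemoglobin lay in few barcodes that held little else. It was stored in 55 of 11857 barcodes outside at 30 cycles (0.464%) and in 87 of 16087 at 35 cycles (0.541%), and 51 and 76 of these had no other transcript. The counts per barcode had a lowest value of 2, a median of 6 and a highest of 9 at 30 cycles and 12 at 35 cycles. HBB was stored under 3 transcripts with 60, 58 and 60 counts at 30 cycles and 87, 85 and 87 at 35 cycles, and ENST00000335295 and ENST00000647020 had the same value in each of 29 and 40 barcodes. A barcode with 6 counts may thus hold 2 counts under 3 names. Of the barcodes with haemoglobin, 8 and 7 were stored in the other library, and 4 of them held haemoglobin there too. Red cells are not among the labelled cells, and where these reads came from was not tested.

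Mouse composition moved less, and its transcripts are given by identifier since no table pairing mouse transcripts with names was used. ENSMUST00000099683 had 288 counts in the cells and 466 outside at 30 cycles, and 505 and 1001 at 35 cycles, with log2 ratios of 1.31 (1.10 to 1.53) and 1.62 (1.47 to 1.78). It was the only one of 211 mouse transcripts tested in both libraries that was higher by 2-fold in both. Thinned, it gave 0.31 and 0.55, and below rank 5000 alone, as stored, it gave 2.62 and 2.99. ENSMUST00000099047 gave 0.82 and 1.24, and -0.27 and 0.04 when thinned. On the lower side, ENSMUST00000201888 had 105 and 42 counts, then 202 and 83, with -0.69 (-1.26 to -0.17) and -0.64 (-1.04 to -0.27), and -0.71 and -0.42 when thinned. ENSMUST00000236469 had 231 and 100 counts, then 381 and 104, with -0.59 (-0.94 to -0.25) and -1.23 (-1.57 to -0.92), and -0.85 and -1.35 when thinned. Of the 211, 47 were higher in both libraries, 111 lower in both and 53 went opposite ways, against 28, 154 and 50 of 232 in human. A stored entry outside held 2.13 counts on average at 30 cycles and 2.26 at 35 cycles, so 100 counts outside rest on fewer than 50 entries on average.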

How the data were processed

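The authors counted reads of both 10X libraries per barcode and transcript. By their methods, Guppy called bases, barcodes were matched to the most common ones with mismatches allowed, minimap2 mapped reads to hg38 and mm10 transcripts, and UMI-tools counted UMIs (directional method). The deposited values are whole-number UMI counts that were not normalized. Their 10-base barcodes and smallest value of 2 are not explained in the sources used here. Labels give 30 and 35 cycles, which match the methods' first round plus the rounds after the split. The paper's main text gives lower combined numbers of cycles for these libraries, and the labels are used here. The labels name JJN3, and the paper also names Jurkat. The cells held 311959 and 439206 counts.

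Species came from the identifier's prefix, and names and positions from GENCODE release 44 on hg38, which matched 93.7% and 93.2% of human identifiers. Log2 ratios of shares within a species used a pseudocount of 0.5 counts, and calls were rules of size: 2-fold for transcripts and 1.25-fold for lists. Shares have exact Clopper-Pearson intervals and ratios exact conditional binomial intervals. Named transcripts were the 10 highest and 10 lowest by the smaller ratio over both libraries, the 5 most abundant outside, and up to 4 for each of 17 lists, of which some are printed. Mouse identifiers were limited to 2 higher and 2 lower. No doublet caller was run. Members and lists were chosen with earlier results of these data known. Work used Python 3.11.15, numpy 2.4.6, pandas 2.3.3, scipy 1.17.1 and matplotlib 3.10.9, and scripts were tested on simulated data.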

Additional observations from a re-analysis of the deposited data

Results flagged for a closer look

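The human share of the counts was lower outside than in the cells at 30 cycles, by a difference of -4.80 percentage points, and higher at 35 cycles, by 2.94 points. The heat shock list was higher outside at 30 cycles, with a log2 ratio of 0.19, and lower at 35 cycles, with -0.29. Against thinned cells its ratios were 0.48 and 0.0017. These results are listed because the 2 libraries went opposite ways. With 1 library per cycle number, the difference between them was not tested.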

How the results depend on the processing

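No paired analysis was possible because each group held 1 library, and no replicate could be left out. Of 54 planned and 32 added recalculations of the main values, 28 and 11 stayed within the limits set (1.5 times for counts, the interval for shares). Transcripts apart by 2-fold numbered 40 at 30 cycles and 60 at 35 cycles. A minimum of 50 counts gave 132 and 193, a minimum of 200 gave 1 and 22, scaling by the median of ratios 26 and 28, and 4000 barcodes as cells 87 and 137. Thinned cells gave 28 at 35 cycles. Ranks below 5000 alone gave 103 and 187, or 88 and 95 with thinned cells, and ranks 2001 to 5000 alone gave 36 at 35 cycles, or 37 thinned. Lists apart by 1.25-fold fell from 9 to 5 and from 11 to 4 with thinned cells.

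The difference in human share was -5.92 and 0.982 points with 1000 barcodes as cells, and -0.785 and 3.90 with 4000. It was -5.24 at 30 cycles without barcodes 1 mismatch from a cell, and 4.94 at 35 cycles with values below 3 left out. It was -6.41 and 1.59 at ranks 2001 to 5000, and -0.139 and 6.36 below rank 5000. The mixed share was 3.01% and 2.75% at a purity of 80%, 11.0% and 9.43% at 95%, 5.12% and 4.40% with at least 5 counts, and 5.34% and 4.49% with at least 20. Below rank 5000 it was 7.98% and 7.77%, and at ranks 2001 to 5000 at 35 cycles 3.77%. Species agreement with the cell 1 mismatch away was 59.5% at 35 cycles with 1000 barcodes as cells, 47.9% and 48.9% at ranks 2001 to 5000, and 57.5% and 59.1% below rank 5000. It was 65.6% and 68.0% for deletions and 66.6% and 69.1% for insertions.

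Some list ratios changed sign, with 0 and not the median transcript as the reference. Against thinned cells, the mitochondrial list went to -0.24 and -0.19 (ranks 2001 to 5000 alone -0.018 and -0.033, below rank 5000 -0.40 and -0.12), and lambda to -0.064 and -0.094 (below rank 5000 -0.71 and -0.025). Thinned values at 35 cycles were 0.042 for glycolysis (0.066 at ranks 2001 to 5000), 0.019 for splicing, and 0.38 for plasma cell genes below rank 5000. At 30 cycles glycolysis was 0.0055 with 1000 barcodes as cells, and MHC class I was 0.21 with values below 3 left out and 0.13 at thinned ranks 2001 to 5000. Thinning and the settings on ranks, on barcodes taken as cells and on values below 3 change the depth compared by construction, and the cause of the moves was not tested. Calls rest on few counts per barcode. The settings on ranks and on insertions and deletions were chosen after seeing the data.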
